A study of Mus musculus domesticus and Mus musculus molossinus with 8 samples.

Results

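The genes described here are 10 members of the TNF receptor superfamily other than Fas: Tnfrsf1a, Tnfrsf1b, Tnfrsf10b, Tnfrsf12a, Tnfrsf21, Ltbr, Cd27, Tnfrsf9, Tnfrsf4 and Cd40. They were taken by gene symbol, and all 10 were found among the 23284 genes of both deposited tables. The RNA-seq libraries were made from polyadenylated RNA of 4 mice, all 8 weeks old, with 1 liver and 1 thymus library from each. The groups were MSM/Ms (MSM, a wild-derived strain) liver injected, C57BL/6 (B6, a classical laboratory strain) liver injected, MSM liver untreated and B6 liver untreated, and the same 4 groups of thymus from the same mice. MegaFasL, which is Fas ligand in multimeric form, was given into the peritoneum of injected mice at 1.5 µg, and untreated mice were given none. Each group is 1 library from 1 mouse, so no value of a group has a replicate check. The time between injection and collection is not given in the sources used here.

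TNF receptors are membrane proteins that bind trimeric ligands of the TNF family through cysteine-rich repeats. Some carry a death domain in the cytoplasm and can start apoptosis or NF-kappaB signalling through adaptors such as TRADD and FADD, and the others recruit TRAF proteins. Of the genes here, Tnfrsf1a (TNF receptor 1), Tnfrsf10b (the mouse TRAIL receptor) and Tnfrsf21 (death receptor 6) encode death domain receptors. Tnfrsf1b (TNF receptor 2), Tnfrsf12a (Fn14, the TWEAK receptor) and Ltbr (the lymphotoxin beta receptor) encode receptors that signal through TRAF proteins. Cd27, Tnfrsf9 (4-1BB) and Tnfrsf4 (OX40) encode co-stimulatory receptors of T cells, and Cd40 encodes the co-stimulatory receptor of B cells, dendritic cells and thymic epithelium. Injury of the liver involves TNF receptor 1 signalling in hepatocytes, and formation of the thymic medulla involves Ltbr and Cd40 in epithelial cells.

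Values are FPKM, fragments scaled to transcript length and to the fragments mapped in the library. The step between low FPKM values gave an estimate of depth, by which 1 FPKM on 1 kb of effective transcript stood for 1.56 to 1.79 fragments in livers and 2.81 to 3.43 in thymi. For every one of the 80 member values the lower confidence bound deposited by the authors is 0 FPKM. The tissues matched their labels by marker genes. All 8 hepatocyte markers reached 1 FPKM in every liver, with a summed level of 83310 to 113600 FPKM, and all 8 thymocyte markers did so in every thymus, with 989 to 1788 FPKM. The MSM untreated thymus stood apart, with hepatocyte markers at 2554 FPKM, against 36.7 to 181.5 in the other thymi, and airway secretory markers at 1130 FPKM, against 1.07 to 7.01. Thymocyte markers in the B6 untreated liver summed to 29.1 FPKM, against 4.01 to 5.88 in the other livers.

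3 of the genes, Cd27, Ltbr and Tnfrsf1a, lie together on chromosome 6 (mm10). By its RefSeq coordinates, Ltbr (chr6:125306571-125313885, minus strand) is 69434 bases from Cd27 and 35837 bases from Tnfrsf1a (chr6:125349723-125362483, plus strand). Cd27 itself is at chr6:125232620-125237136 on the minus strand by RefSeq on GRCm38, while its locus in the deposited tables, 125224212 to 125239934, is wider than the gene. Tnfrsf1b (chr4:145212368-145246870, minus strand), Tnfrsf9 (chr4:150920155-150946102, plus strand) and Tnfrsf4 (chr4:156013695-156016589, plus strand) are on chromosome 4, megabases apart. Tnfrsf12a and Tnfrsf21 are on chromosome 17, Tnfrsf10b on chromosome 14 and Cd40 on chromosome 2. The deposited locus of Tnfrsf12a, 23660523 to 23677449, is also wider than the gene by RefSeq, 23675445 to 23677449. What the wider loci mean for the values of Cd27 and Tnfrsf12a was not tested. In the gene annotation used here, no member exon overlaps an exon of another gene in the tables. The annotation behind the deposited FPKM may differ from it.

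Liver and thymus held different sets of these receptors. Livers were dominated by Ltbr and Tnfrsf1a, which made up 35.0% to 40.3% and 31.9% to 42.4% of the summed FPKM of the 10 genes. Thymi were dominated by Cd27, at 62.0% to 72.4%. In the test of liver minus thymus over all genes (limma on log2(FPKM + 1), mouse as a block, 4 mice), 2 of the 10 members were higher in liver and 5 lower at a Benjamini-Hochberg adjusted p under 0.05. Over all 12880 genes tested, 60.7% passed, 28.6% higher and 32.1% lower, so the members' share of calls is near that of all genes. The 5 lower members had a mean under 1 FPKM in liver and entered the test by their thymus mean alone. The filter by itself thus favoured lower values in liver for them.

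**Figure D1:**
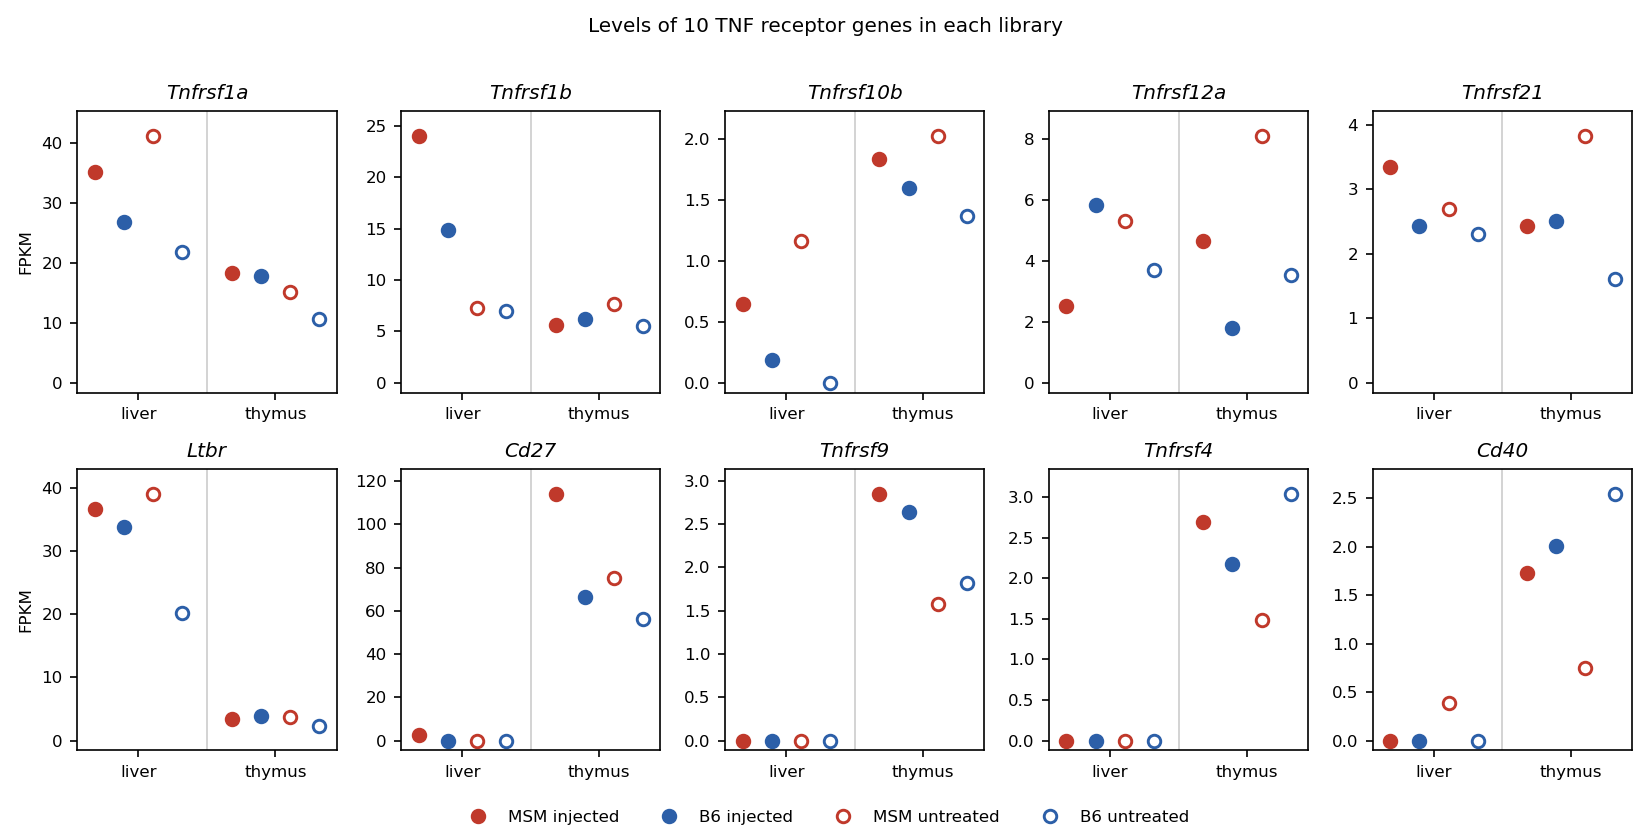
FPKM of each gene in each library, 1 panel per gene with its own linear axis, livers left and thymi right. Filled points are injected and open points untreated mice, red MSM and blue B6, each point 1 library. Ltbr is high in all 4 livers and Cd27 in all 4 thymi, and Tnfrsf1b is highest in the 2 injected livers.

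Ltbr, which drives lymphoid organ formation through noncanonical NF-kappaB, stood at 36.7 FPKM in MSM and 33.8 in B6 injected liver, and at 39.1 in MSM and 20.3 in B6 untreated liver. In thymus it stood at 3.39 FPKM in MSM and 3.92 in B6 injected mice, and at 3.75 in MSM and 2.30 in B6 untreated mice. The liver mean was 9.72 times the thymus mean, and the B6 untreated liver was the lowest liver. The difference on the log2(FPKM + 1) scale was 2.92 ± 0.17 (SE, n = 4 mice; limma adjusted p = 8.38e-05). Livers held 63 to 129 Ltbr fragments by the estimated depth, and thymi 15 to 25.

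Tnfrsf1a, the widely expressed receptor for TNF, stood at 35.2 FPKM in MSM and 26.7 in B6 injected liver, and at 41.1 in MSM and 21.8 in B6 untreated liver. In thymus the values were 18.2 FPKM in MSM and 17.8 in B6 injected mice, and 15.1 in MSM and 10.5 in B6 untreated mice. Livers and thymi did not overlap, which was not counted over all genes, of which 60.7% passed the tissue test. The difference was 0.96 ± 0.19 (n = 4 mice, limma adjusted p = 0.006) as deposited. It was -0.06 (adjusted p = 0.774) after every library was rescaled to a common sum. That rescaling put the median difference over all genes at -0.98, against -0.13 as deposited, and the share of calls that were higher in liver at 21.5%, against 47.1%. Relative to that median Tnfrsf1a was high in liver under both scalings, as was Ltbr, whose difference was 1.99 with the common sum. Per length, Ltbr and Tnfrsf1a were nearly equal in liver, with an Ltbr to Tnfrsf1a ratio of 0.93 to 1.26, against 0.186 to 0.249 in thymus.

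Tnfrsf1b differed by 0.82 ± 0.35 between liver and thymus, which missed the threshold (limma adjusted p = 0.086). Its 4 thymus values lay close together, at 5.65 FPKM in MSM and 6.17 in B6 injected mice and 7.67 in MSM and 5.54 in B6 untreated mice. Without the MSM untreated mouse, whose thymus carried hepatocyte markers, the difference was 1.12 and passed (adjusted p = 0.0376). It was 0.45 without the MSM injected mouse (adjusted p = 0.255), 0.71 without the B6 injected mouse (0.226) and 0.99 without the B6 untreated mouse (0.0984). With the common sum it was -0.14.

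The genes of co-stimulatory T cell receptors were higher in thymus, and entered the tissue test by their thymus mean alone. Cd27, a receptor of developing and naive T cells, had 2.40 FPKM in MSM injected liver and was listed at 0 in the other 3 livers. In thymus it reached 114 FPKM in MSM and 66.3 in B6 injected mice, and 75.0 in MSM and 56.2 in B6 untreated mice. The difference was -5.81 ± 0.24 (n = 4 mice, limma adjusted p = 6.63e-05). The Cd27 value of the MSM injected liver rests on an estimated 5 fragments or fewer, and its source was not tested. Summed thymocyte markers were at 4.01 FPKM in that liver and at 29.1 in the B6 untreated liver.

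Tnfrsf9 and Tnfrsf4, found on activated T cells and on regulatory T cells, were listed at 0 in all 4 livers. A single Tnfrsf9 fragment would have given 0.292 to 0.335 FPKM there. In thymus Tnfrsf9 stood at 2.85 FPKM in MSM and 2.64 in B6 injected mice, and at 1.58 in MSM and 1.82 in B6 untreated mice. Tnfrsf4 stood at 2.69 FPKM in MSM and 2.18 in B6 injected thymus, and at 1.49 in MSM and 3.04 in B6 untreated thymus. Both passed the filter by thymus alone, which favoured lower values in liver. Tnfrsf9 was lower in liver by -1.67 ± 0.24 and Tnfrsf4 by -1.72 ± 0.25 (limma adjusted p = 0.00175 and 0.00162). These sizes depend on the added 1 and are not fold changes. The 4 regulatory T cell markers, with Foxp3 among them, summed to 21.9 to 30.4 FPKM in thymi and 0.28 to 2.22 in livers. In bulk RNA, fewer cells of a type and less RNA per cell cannot be told apart.

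Cd40 stood at 0.391 FPKM in the MSM untreated liver, an estimated 2 fragments or fewer, and was listed at 0 in the other livers. In thymus it stood at 1.73 FPKM in MSM and 2.01 in B6 injected mice, and at 0.749 in MSM and 2.55 in B6 untreated mice. Tnfrsf10b, the TRAIL death receptor, stood at 0.641 FPKM in MSM and 0.187 in B6 injected liver, at 1.16 in MSM untreated liver, and was listed at 0 in B6 untreated liver. These values rest on 3, 1, 6 and 0 fragments. In thymus it stood at 1.83 FPKM in MSM and 1.59 in B6 injected mice, and at 2.02 in MSM and 1.36 in B6 untreated mice, on 14 to 17 fragments. Cd40 and Tnfrsf10b entered the tissue test by their thymus mean alone, which favoured lower values in liver. Cd40 was lower in liver by -1.30 ± 0.32 and Tnfrsf10b by -0.91 ± 0.25 (limma adjusted p = 0.0144 and 0.0204). Both calls were lost when the B6 untreated, the B6 injected or the MSM injected mouse was left out, with adjusted p of 0.0528 to 0.0811.

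Tnfrsf12a and Tnfrsf21 were found at like levels in both organs. Tnfrsf21 ranged from 2.31 to 3.34 FPKM in liver and from 1.61 to 3.83 in thymus, a difference of 0.07 with a 95% interval of -0.49 to 0.62. With the common sum it was lower in liver by -0.72 (adjusted p = 0.0327), less than the shift of the median of all genes. Tnfrsf12a ranged from 2.50 to 5.83 FPKM in liver and from 1.80 to 8.09 in thymus, a difference of 0.03 with an interval of -0.85 to 0.91. The Tnfrsf12a values rest on 3 to 18 fragments, and its interval leaves room for a difference in either direction. With the common sum its difference was -0.82 (adjusted p = 0.096).

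**Figure D2:**
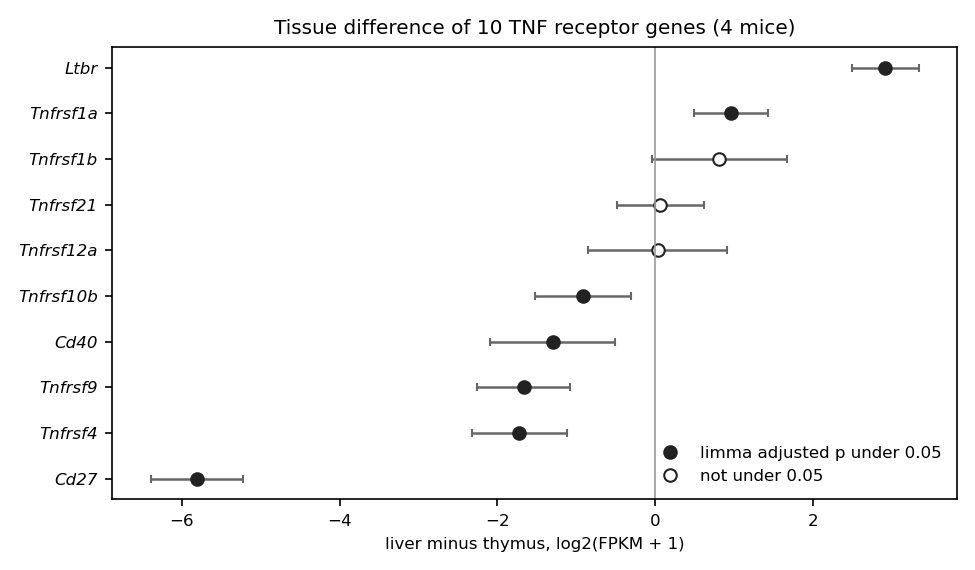
Liver minus thymus difference of each gene in log2(FPKM + 1), as deposited, with 95% intervals from the limma fit on 4 mice. Filled points have an adjusted p under 0.05. Ltbr at 2.92 and Cd27 at -5.81 mark the ends, and the intervals of Tnfrsf1b, Tnfrsf21 and Tnfrsf12a cover 0.

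After MegaFasL, Tnfrsf1b had the widest change in liver of the 5 members that passed the filter there, in both strains. MSM liver had 24.0 FPKM when injected, against 7.23 FPKM when untreated, and B6 liver had 14.9 FPKM when injected, against 6.98 FPKM when untreated. Both injected livers were above all other 6 libraries, an order that was not counted over all genes. The FPKM ratio was 3.32 in MSM (136 against 45 fragments, 95% counting interval 2.38 to 4.81) and 2.13 in B6 (96 against 41 fragments, 1.47 to 3.15). These intervals, exact conditional binomial, cover counting error only and compare single libraries. In thymus the ratio was 0.737 in MSM (0.517 to 1.03) and 1.11 in B6 (0.792 to 1.57). Injected and untreated values come from separately normalized tables and 1 mouse each, and the change within a tissue was not tested.

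On the log2(FPKM + 1) scale, after centring libraries within liver, the Tnfrsf1b change was 1.57 in MSM and 0.93 in B6. With the added 1 and the centring, the B6 change fell short of the 2-fold limit, so a change of at least 2-fold the same way in both strains was met by 0 of the 5 members that passed the filter of a mean of 1 FPKM in liver. Over all 10971 genes in liver 2.88% were. With an added value of 0.1, or with the common sum, Tnfrsf1b reached 2-fold in both strains. In MSM alone 1 of the 5 was past 2-fold higher, against 6.75% of all genes. Tests of whether the injection change differed between liver and thymus of the same mouse gave 1.42 for Tnfrsf1b (95% interval 0.32 to 2.52, n = 4 mice), with an unadjusted p of 0.0201 and a limma adjusted p of 0.593. This test was passed by 0 of the 10 members and by 0.0388% of all genes. Tnfrsf1b was the 1 of 10 with an unadjusted p under 0.05, against 974 of all 12880 genes. The difference was positive under all 13 alternatives (1.04 to 1.81) and passed under 0 of them.

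TNF receptor 2 is found on myeloid cells, endothelium and lymphocytes. Summed macrophage and Kupffer cell markers, 9 genes, were at 46.5 FPKM in MSM and 166.5 in B6 injected liver, against 67.2 in MSM and 336.7 in B6 untreated liver. Summed endothelial markers, 5 genes, were at 21.5 FPKM in MSM and 56.4 in B6 injected liver, against 58.6 in MSM and 70.6 in B6 untreated liver. Both sums were thus lower in the injected liver of each strain, but single markers did not all follow them. In MSM liver Cd68 (2.37 FPKM injected, 2.15 untreated), Marco (1.07, 0.648) and Timd4 (0.967, 0.293) were higher when injected. The other macrophage markers were lower. In B6 liver the endothelial markers Kdr (17.68 FPKM injected, 18.55 untreated) and Stab2 (17.51, 17.96) differed little. All 9 macrophage markers and all 5 endothelial markers were above 0 in every liver. Thymocyte markers were at 4.01 FPKM in MSM and 5.88 in B6 injected liver, against 4.75 in MSM and 29.1 in B6 untreated liver. The part of any of these cells in the Tnfrsf1b change was not tested.

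The other receptors changed less in liver, or in 1 strain. The Tnfrsf1a ratio, injected over untreated, was 0.855 in MSM (0.657 to 1.11) and 1.23 in B6 liver (0.888 to 1.69). The 2 TNF receptor genes were closer in level in the injected livers. Tnfrsf1a was 1.46 times Tnfrsf1b in MSM and 1.80 times in B6 injected liver, against 5.68 times in MSM and 3.13 times in B6 untreated liver. For Ltbr the ratio was 0.938 in MSM (0.719 to 1.22) and 1.67 in B6 liver (1.21 to 2.30), where the untreated library was the lowest of the 4 livers. For Tnfrsf21 the ratios were 1.24 (0.60 to 2.62) in MSM and 1.05 (0.466 to 2.40) in B6 liver, on 13 to 18 fragments. Tnfrsf12a had 2.50 FPKM in injected and 5.30 FPKM in untreated MSM liver, and 5.83 FPKM in injected and 3.70 FPKM in untreated B6 liver. Its change was -0.87 in MSM and 0.49 in B6, each on 8 fragments or fewer per library.

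In thymus the 2-fold rule for both strains was met by 0 of the 10 members, against 0.698% of all 11610 genes. The widest changes were those of Tnfrsf12a, at -0.76 in MSM and -0.72 in B6. Tnfrsf9 changed by 0.53 in MSM and 0.34 in B6 and Cd27 by 0.52 and 0.19. For Tnfrsf1a the FPKM ratio was 1.21 (0.904 to 1.63) in MSM and 1.68 (1.23 to 2.28) in B6 thymus.

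**Figure D3:**
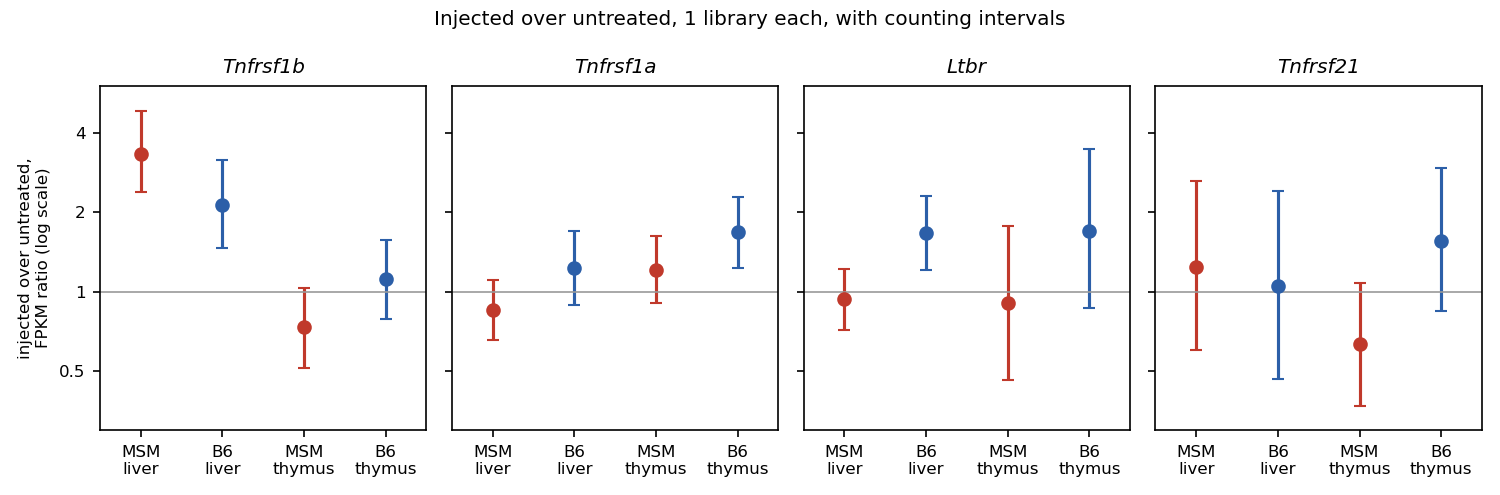
FPKM in the injected over the untreated library of the same strain and tissue, on a log scale, for 4 genes with a single RefSeq transcript. Each point is 1 library against 1 library and the bars are 95% counting intervals only. The intervals of Tnfrsf1b lie above 1 in both livers and cover 1 in both thymi.

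Between the strains, Tnfrsf1a, Cd27 and Tnfrsf12a had the differences with the lowest p, and none passed. In liver 0 of the 5 members tested passed (limma, treatment as a block, 2 mice per strain), and 0 had an unadjusted p under 0.05. Over all genes in liver 1.47% passed. In thymus 0 of 10 passed, against 0.973% of all genes. An unadjusted p under 0.05 was found for 2 of the 10, against 1505 of all 11610 genes, and in liver for 1774 of all 10971 genes. The error of these tests comes in part from the gap between the strain difference of the injected pair and that of the untreated pair. The rest is a prior variance drawn from all genes tested, which follows mean level.

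Tnfrsf1a was higher in MSM than in B6 in all 4 pairs of libraries given above, which was not counted over all genes. The liver difference was 0.63 ± 0.25 (95% interval -0.01 to 1.28, limma adjusted p = 0.315) and the thymus difference 0.26 ± 0.24 (adjusted p = 0.716). The MSM over B6 ratio was 1.31 in injected liver (counting interval 0.981 to 1.74) and 1.89 in untreated liver (1.39 to 2.53). Ltbr differed by 0.51 ± 0.29 in liver (adjusted p = 0.455), by 0.16 without the B6 untreated liver and by 0.87 without the B6 injected liver, with a ratio of 1.08 (0.829 to 1.43) in injected and 1.93 (1.42 to 2.65) in untreated liver. Tnfrsf1b differed by 0.35 ± 0.29 in liver, with a ratio of 1.62 (1.24 to 2.13) in injected and 1.04 (0.662 to 1.62) in untreated liver.

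Cd27 was higher in MSM thymus by 0.59 ± 0.24 (unadjusted p = 0.0453, limma adjusted p = 0.379). The difference was 0.29 without the MSM injected thymus and 0.89 without the MSM untreated thymus. Both MSM thymi were above both B6 thymi, but how many of all genes show that order was not counted. Reads of both strains were aligned to mm10, a C57BL/6 genome, and the part of lost MSM reads in any strain difference was not tested.

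Tnfrsf12a, a small receptor induced by growth factors and injury, stood at 4.63 FPKM in MSM and 1.80 in B6 injected thymus, and at 8.09 in MSM and 3.53 in B6 untreated thymus. Both MSM thymi were above both B6 thymi, an order that was not counted over all genes. The difference was 1.01 ± 0.29 (unadjusted p = 0.0121, limma adjusted p = 0.232). Leaving out 1 library gave 0.66 (without the MSM untreated or the B6 injected thymus) or 1.35 (without the MSM injected or the B6 untreated thymus). Its highest value was in the MSM untreated thymus, which also held fibroblast markers at 113.2 FPKM, against 44.8 to 52.5 in the other thymi, and adipocyte markers at 353.6 FPKM, against 21.7 to 32.7, and their part in the difference was not tested. In liver Tnfrsf12a differed by -0.27 ± 0.45. The strain difference was lower in liver than in thymus by -1.28 (95% interval -2.52 to -0.03, unadjusted p = 0.0462, limma adjusted p = 0.383). That test was passed by 0 of 10 members and by 0.365% of all genes. An unadjusted p under 0.05 was found for 1 of the 10, against 1626 of all 12880 genes.

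Among the scarcer thymus receptors, Cd40 differed by -0.58 ± 0.46, Tnfrsf4 by -0.24 ± 0.41 and Tnfrsf9 by -0.02 ± 0.38. Their 95% intervals span from -1.68 to 0.53 for Cd40 and from -0.93 to 0.89 for Tnfrsf9. For Tnfrsf10b and Tnfrsf21 the thymus differences were 0.24 ± 0.42 and 0.43 ± 0.40, and Tnfrsf21 differed by 0.25 ± 0.36 in liver. The MSM over B6 ratio of Tnfrsf21 was 0.97 (0.548 to 1.70) in injected and 2.38 (1.33 to 4.38) in untreated thymus. Tnfrsf10b, Cd27, Tnfrsf9, Tnfrsf4 and Cd40 had a mean under 1 FPKM in liver and were not tested there.

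**Figure D4:**
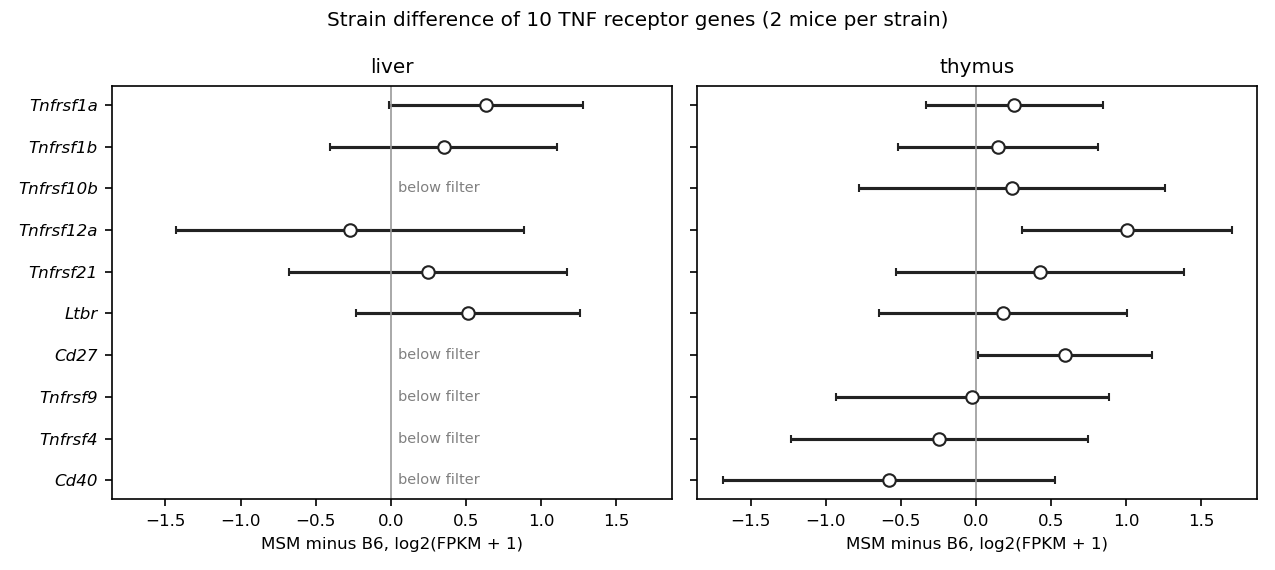
MSM minus B6 difference of each gene in log2(FPKM + 1), in liver and thymus, with 95% intervals from the limma fits on 4 libraries each. Genes with a mean under 1 FPKM in liver have no point there. The intervals of Tnfrsf12a and Cd27 in thymus lie above 0, and no difference passed after adjustment over all genes.

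Among the genes of TNF ligands, those called between the tissues were lower in liver. Of 17 TNF ligand genes 8 passed the filter in a tissue, and 4 of these were lower in liver by limma and 0 higher, with a median of -0.96 against -0.13 over all genes. Over all genes tested between tissues 32.1% were lower and 28.6% higher. The 4 lower genes had a mean under 1 FPKM in liver and passed the filter by thymus alone, which favoured that direction. Ltb, a subunit of the ligand of Ltbr, stood at 0 in MSM and 0.622 FPKM in B6 injected liver and at 0 in MSM and 1.36 in B6 untreated liver. Its thymus values were 29.5 FPKM in MSM and 22.9 in B6 injected mice and 27.4 in MSM and 26.6 in B6 untreated mice. Ltb was thus lower in liver by -4.30 ± 0.30 (adjusted p = 0.000118), while its receptor gene Ltbr was higher in liver. Cd40lg, the ligand gene of Cd40, was listed at 0 in all 4 livers and stood at 1.84 to 3.04 FPKM in thymi (-1.73 ± 0.24, adjusted p = 0.00136). Tnfsf11 (RANKL, -0.98) and Tnfsf8 (the CD30 ligand, -1.06) were lower in liver as well. Cd70, the ligand gene of Cd27, was listed at 0 in all 8 libraries.

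Tnf, Tnfsf10 and Tnfsf12 are given for liver because their products bind members, and were named after their values were seen. Tnf, which binds both TNF receptors, stood at 4.49 FPKM in MSM injected liver, against 0.816 in MSM untreated liver, and was listed at 0 in both B6 livers. Tnfsf10 (TRAIL) stood at 5.77 FPKM in MSM and 1.76 in B6 injected liver, and at 13.8 in MSM and 3.34 in B6 untreated liver. Tnfsf12 (TWEAK), which binds the product of Tnfrsf12a, stood at 0.426 FPKM in MSM and 5.59 in B6 injected liver, and was listed at 0 in MSM and stood at 2.86 in B6 untreated liver. Strain differences in liver were 1.66 ± 0.60 for Tnf, 1.53 ± 0.32 for Tnfsf10 and -2.08 ± 0.42 for Tnfsf12, and none passed (limma adjusted p = 0.286, 0.129 and 0.124). Of the ligand genes 0 of 4 tested in liver passed, with 3 under an unadjusted p of 0.05, and 0 of 6 in thymus, with 0 under it. Over all genes 1774 of 10971 in liver and 1505 of 11610 in thymus were under it, which is also the background for the lists that follow.

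Of 17 further TNF receptor genes 9 passed the filter in a tissue, 1 was higher and 3 were lower in liver. Over all genes tested between tissues 28.6% were higher and 32.1% lower. The 3 lower genes had a mean under 1 FPKM in liver and passed the filter by thymus alone. Lower in liver were Tnfrsf18 (GITR, -2.24 ± 0.47), Tnfrsf8 (CD30, -1.92 ± 0.25) and Relt (-1.79 ± 0.26), and higher was Tnfrsf11b, the soluble RANKL decoy osteoprotegerin (0.80 ± 0.22, limma adjusted p = 0.0216). In the strain tests 0 of 4 in liver and 0 of 7 in thymus passed. In thymus 2 of them had an unadjusted p under 0.05. These were Tnfrsf13b (-1.74 ± 0.49) and Tnfrsf26 (-2.09 ± 0.51), chosen after their values were seen. Tnfrsf26 was listed at 0 in both MSM thymi and stood at 2.99 FPKM in injected and 3.55 in untreated B6 thymus.

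Adaptor and signalling genes were mostly higher in thymus where they differed. Of 24 genes tested, 2 were higher and 10 lower in liver, with a median of -0.43. Over all genes tested between tissues 28.6% were higher and 32.1% lower as deposited, with a median of -0.13. With the common sum, 21.5% of the calls over all genes were higher in liver, against 47.1% as deposited. Lower in liver were Traf1 (-2.98 ± 0.43), Tnfaip3, which limits NF-kappaB (-2.70 ± 0.51), Tab1 (-2.28 ± 0.32) and Traf2 (-1.59 ± 0.28). Traf1 and Tab1 had a mean under 1 FPKM in liver and passed the filter by thymus alone. Higher in liver were the kinase subunit genes Chuk (1.95 ± 0.15, limma adjusted p = 0.000172) and Ikbkg (1.07 ± 0.24). Of the genes of receptor shedding, Adam10 and Adam17 were lower in liver (-1.05 ± 0.18 and -0.76 ± 0.17), 2 of 4 tested, and 0 were higher. Traf1 stood at 17.5 FPKM in MSM and 5.87 in B6 injected thymus, and at 18.2 in MSM and 4.65 in B6 untreated thymus. Its strain difference of 1.60 ± 0.25 just missed the threshold (adjusted p = 0.0532), and Traf1 is named here after its values were seen. Of the 24, 0 passed in the strain test of thymus and 3 had an unadjusted p under 0.05, and 0 of 21 passed in liver, with 1 under 0.05.

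After MegaFasL, of 21 adaptor genes in liver 0 were higher by the 2-fold rule for both strains and 1, Traf5, was lower (-1.55 in MSM and -1.22 in B6). Traf5 was listed at 0 in MSM injected liver, against 1.93 FPKM in MSM untreated liver. In B6 liver it stood at 1.24 FPKM when injected, against 4.07 when untreated. At such low levels, as for Rhbdf1 in B6 below, the sizes depend on the added 1. Of the 4 shedding genes Rhbdf1, an iRhom gene of the pathway that matures ADAM17, was higher in both (1.65 in MSM and 1.12 in B6), at 6.27 FPKM in MSM and 1.22 in B6 injected liver, against 1.27 in MSM untreated liver and a listing at 0 in B6 untreated liver. Over all genes in liver 1.64% were higher and 1.24% lower in both strains. Tnfaip3, named after its values were seen, stood at 8.01 FPKM in MSM injected liver and was listed at 0 in MSM untreated liver, and it stood at 1.34 FPKM in B6 injected liver, against 1.18 in B6 untreated liver. None of the 4 ligand genes and none of the 4 further receptor genes that passed the filter in liver were 2-fold changed the same way in both strains.

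The genes whose pattern was most like that of a member were found by Pearson correlation over the 8 libraries after each tissue's mean was subtracted, as a description without a test. With Tnfrsf1b the closest genes among those with a mean of 5 FPKM in liver were Kcnk5 and Map3k5 (r = 0.991 for both). Kcnk5 stood at 27.1 FPKM in MSM and 15.5 in B6 injected liver, and at 8.40 in MSM and 7.51 in B6 untreated liver. Among genes with that mean in thymus they were Herpud1 (r = 0.989) and Lpin1 (r = 0.977). Tnfrsf1a was closest to Atg4d (r = 0.972) and Sigirr (r = 0.952), Ltbr to Gsk3a (r = 0.986) and Sh2b1 (r = 0.972), and Cd27 to Ppp3r1 and Vdac2 (r = 0.982 for both). The 8 points share 4 mice and 2 tables, and 6547 genes were searched by the liver mean and 6618 by the thymus mean.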

How the data were processed

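The authors deposited gene FPKM in 1 table for untreated and 1 for injected mice, aligned to mm10 with TopHat and computed with Cuffdiff 2.2.1, per the submitters' processing notes. Settings and annotation are not given in the sources used here, and each table was normalized separately. Levels were analysed as log2(FPKM + 1) where a gene's mean reached 1 FPKM in the libraries compared (in either tissue across tissues). Fits were made in R 4.3.3 by limma 3.58.1, the prior variance following mean level, with two-sided p adjusted by Benjamini-Hochberg over all genes, and were tested on simulated data. Strain was fitted within each tissue with treatment as a block. Liver minus thymus was fitted with mouse as a block, since liver and thymus came from the same mouse per the submitters' design text. Injection was not tested within a tissue, and libraries there were centred by the median ratio. P-values rest on the spread among these mice and on the prior variance from all genes, with 1 mouse per strain and treatment.

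Fragments were estimated from 1632 to 1832 low values per library, of genes with 1 RefSeq transcript of at least 1500 nucleotides, less 200 for the fragment length. A scale was chosen that made 70.7% to 73.0% of values whole within 0.1, against 20.0% by chance. Counts are estimates, and those of genes with several transcripts use the longest. Without stated strand use, antisense reads are not separated.

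Members, gene lists and tests were chosen with earlier results of these data known. All members could be named, and from each list genes past the threshold, up to 4 per comparison. Others are marked. Alternatives were other added values, filters, scalings, model terms and leaving out libraries or mice.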

Additional observations from a re-analysis of the deposited data

Results flagged for a closer look

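For 9 pairs of gene and tissue the injected library was above its untreated one in 1 strain and below it in the other. Each difference below is the change in MSM minus the change in B6, on the centred log2(FPKM + 1) scale. In liver it was -1.36 for Tnfrsf12a, -0.77 for Ltbr and -0.47 for Tnfrsf1a. In thymus it was -0.95 for Tnfrsf21, -0.72 for Ltbr, -0.55 for Tnfrsf1b and -0.25 for Tnfrsf10b, and on the other side 0.90 for Tnfrsf4 and 0.87 for Cd40. With 1 library per group none of these differences was tested.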

How the results depend on the processing

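Of 497 recomputed member values, 473 counted as unchanged, 6 lost and 1 gained a call with the same direction and 17 turned direction. For tested differences, unchanged means the same direction and the same side of the threshold. For injection changes, which have no test, it means a shift within the counting error, so the 2-fold limit could still be crossed. The causes were not tested. Among those that turned, with the common sum, Tnfrsf1a lost its tissue call and Tnfrsf21 gained one. Genes called between strains in liver (161) became 362 with the common sum and 37 without the trend, and 0 to 0 leaving out a library. In thymus (113) they became 300 with an added 0.1, 62 without a filter, 184 with a filter of 5 FPKM, 61 with centring, 40 with the common sum, 44 without the trend and 274 with robust estimation, and 10 to 301 leaving out a library. Strain by tissue calls (47) became 5 with an added 0.1, 132 with an added 5, 15 without a filter, 15 with a filter of 5 FPKM, 17 with centring, 18 with the common sum, 26 without the trend and 30 with robust estimation, and 0 to 51 leaving out a mouse. Injection by tissue calls (5) became 1 with an added 0.1, 3 without a filter, with a filter of 5 FPKM or with centring, 0 without the strain term, and 0 to 1 leaving out a mouse. Genes at least 2-fold changed in both strains in liver (316) became 554 with an added 0.1, 107 with an added 5 and 197 with a filter of 5 FPKM, and in thymus (81) 230, 25 and 39. Members called between tissues (7) became 3 with a filter of 5 FPKM, which removes members, and 5 to 8 leaving out a mouse. Members at least 2-fold changed in both strains in liver (0) became 1 with an added 0.1 or the common sum.

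Without the mouse as a replicate block, 8130 genes and 7 members were called between tissues, against 7821 and 7 with it. Without the treatment block 143 genes were called between strains in liver and 78 in thymus, and 0 members. The pairing comes from the submitters' design text, by which liver and thymus are from the same mouse.

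The tissue difference turned to -0.82 for Tnfrsf12a, -0.061 for Tnfrsf1a, -0.14 for Tnfrsf1b and -0.72 for Tnfrsf21 with the common sum, and to -0.0014 for Tnfrsf12a with an added 5. Leaving out a mouse, it ranged from -0.39 to 0.27 for Tnfrsf12a and from -0.026 to 0.22 for Tnfrsf21. Leaving out a library, strain differences ranged in liver from -0.45 to 1.15 for Tnfrsf1b and from -0.69 to 0.15 for Tnfrsf12a. In thymus they ranged from -0.11 to 0.47 for Ltbr, -0.095 to 0.61 for Tnfrsf1a, -0.042 to 0.34 for Tnfrsf1b, -0.53 to 0.043 for Tnfrsf4 and -0.31 to 0.27 for Tnfrsf9. Liver levels of Tnfrsf10b, Tnfrsf12a, Cd27 and Cd40 rest on 8 fragments or fewer per library.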
